A study of Mus musculus with 4 samples.

Results

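The splicing-factor genes described here are 56 of the 26322 genes listed in the deposited table, chosen by symbol: 21 begin with Hnrnp, 11 are numbered Srsf genes, 9 are numbered Sf3a or Sf3b genes, 12 begin with Snrp and 3 begin with U2af. Their expression was measured in MC38, a mouse colon cancer cell line, by 3′ mRNA sequencing. The cells had been electroporated with Cas9 and either a non-targeting guide (sgNT, labelled WT, 2 libraries) or a guide to Cbfb (sgCbfb, labelled CbfbKO, 2 libraries), and were collected at least 1 week later with no further treatment named. All libraries therefore share the Cas9 electroporation, and the edit in sgCbfb rests on a single guide. The sources used here do not say whether the edited cells were a pool or a clone, nor whether the replicates came from separate cultures, so p-values measure only the spread between these libraries.

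Splicing removes introns from pre-mRNA in the spliceosome, which is built from small nuclear ribonucleoproteins (snRNPs) and many non-snRNP proteins. SR proteins bind exons and recruit the machinery, hnRNP proteins coat nascent RNA and often oppose them, U2AF recognises the 3′ splice site, and SF3a and SF3b bring the U2 snRNP to the branch point. The question asked of these genes was whether their mRNA differed between sgCbfb and sgNT cells, family by family. Hnrnpk is given singly because its protein, hnRNP K, is a reported binding partner of CBFβ, the product of the targeted gene.

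In replicate order, the libraries held 3396192 and 3335116 reads counted on genes in sgNT and 3907936 and 3189035 in sgCbfb. Values are log2 CPM, a gene's share of its library's reads on a log2 scale, and because 3′ sequencing reads the end of each transcript, a gene's level does not grow with its length. The paper checked the deletion of CBFβ in MC38 cells by immunoblot, while the reads here measure only the mRNA. Cbfb had 295 and 285 reads in sgNT and 125 and 125 in sgCbfb, a log2 fold change of -1.27 with a standard error (SE) of 0.12 (limma adjusted p = 1.76e-07). The adjusted p was 0.267 without sgCbfb replicate 1 and 0.193 without sgCbfb replicate 2, at log2 fold changes of -1.12 and -1.41, and it was 0.29 with no low-value filter and 0.115 without the mean-variance trend. The epithelial markers Epcam, Cdh1, Krt8, Krt18, Krt19, Krt20, Vil1 and Cdx2 had between 5 and 7 reads in all per library, so the epithelial markers of a colorectal line were at or near 0 in both groups, with Krt18 and Vil1 at 0 in every library. Immune markers summed to between 0 and 6 reads per library and endothelial markers to between 1 and 2. Fibroblast markers summed to 241 and 216 reads in sgNT and 298 and 260 in sgCbfb (71.0 and 64.8 CPM against 76.3 and 81.5 CPM), from Pdgfra and Dcn for the most part, with Thy1 and Lum at 0. The smallest limma adjusted p among them was 0.0515, for Pdgfra at a log2 fold change of 0.53. Their part in the results was not tested.

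The splicing-factor genes as a whole differed little between sgCbfb and sgNT cells. Of the 56 genes, 53 passed the low-value filter, and the 3 that did not (Snrpn, Srsf12 and the pseudogene Hnrnpa1l2-ps2) had 0 reads in every library. Snrpn and Hnrnpa1l2-ps2 each overlap another annotated gene, and reads shared between genes may not have been counted. Among the 53, 1 was lower in sgCbfb at an adjusted p under 0.05 (Snrpf) and 0 were higher, by limma with Benjamini-Hochberg adjustment over the 12207 tested genes. In the same test 1.25% of all tested genes were lower and 1.57% were higher, 2.83% together. At an unadjusted p under 0.05, 6 members lay on the higher side and 4 on the lower side, together 18.9% of those tested, against 14.9% of all tested genes (9.67% higher and 5.23% lower). In bulk libraries a smaller number of expressing cells and less RNA per cell cannot be told apart.

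**Figure D1:**
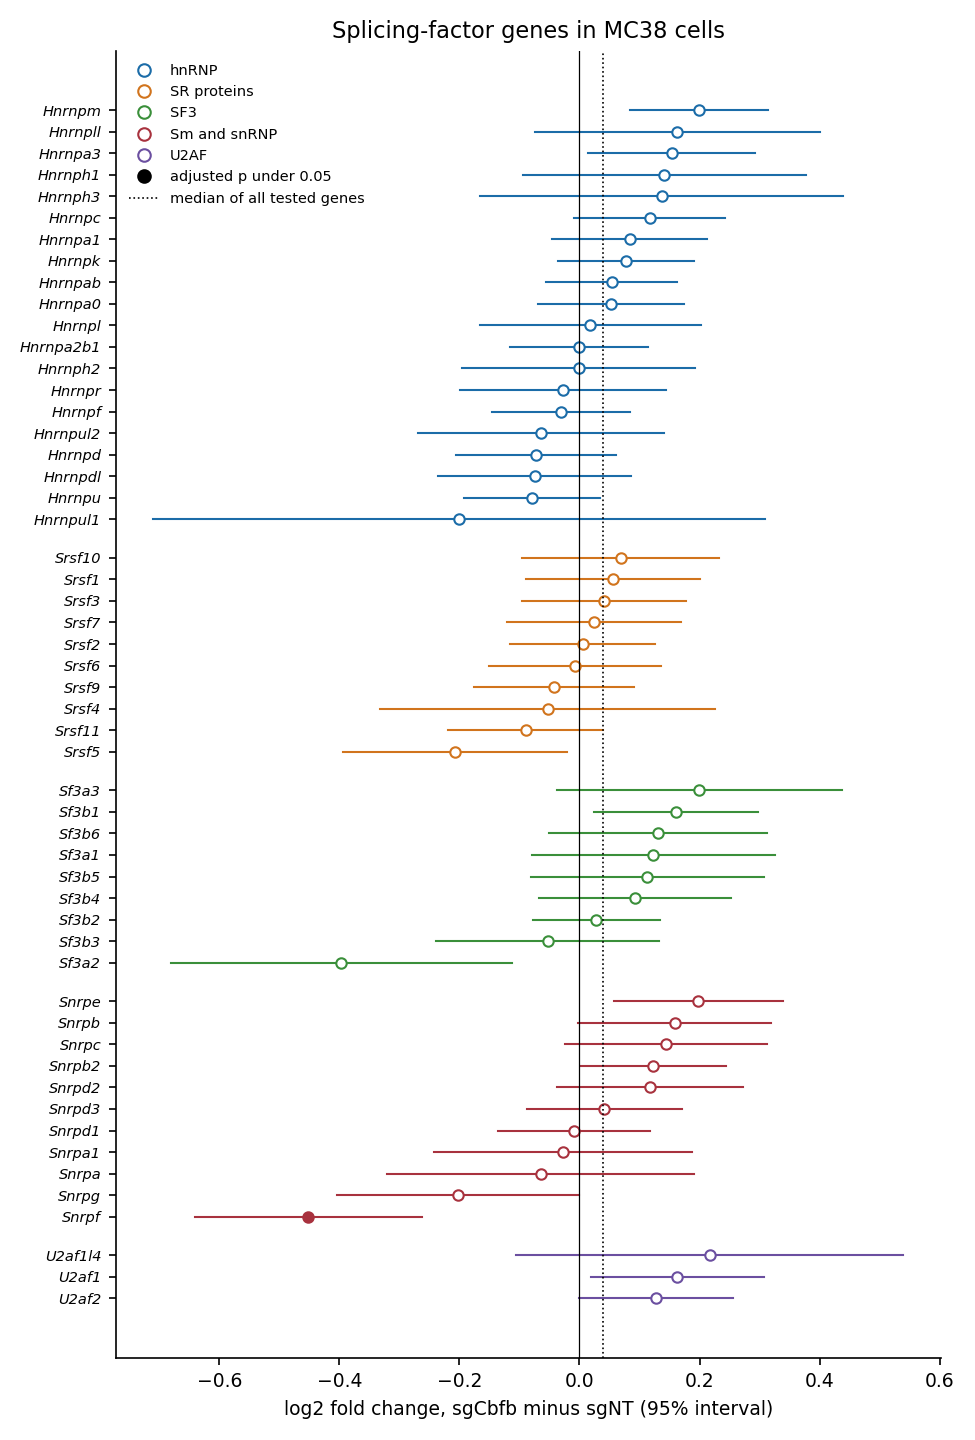
Log2 fold change (sgCbfb minus sgNT, horizontal axis) of the 53 tested splicing-factor genes, one row per gene, grouped and coloured by family, with 95% intervals as lines. The filled point marks the gene past an adjusted p of 0.05, Snrpf, and the dotted line marks the median of all tested genes, 0.039.

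The members' log2 fold changes ran from -0.45 (Snrpf) to 0.22 (U2af1l4), with a median of 0.041, against a median of 0.039 over all tested genes. The value was above 0 for 32 of the 53 (60.4%), against 57.0% of all tested genes. The median size of the change, regardless of sign, was 0.083 on the log2 scale for the members and 0.17 for all tested genes. The members are abundant and were measured with a median standard error of 0.075, against 0.19 for all tested genes. For 50 of the 53 the 95% interval of the change lay wholly within 1.5-fold in either direction, which held for 48.9% of all tested genes. The 3 exceptions were Snrpf, Sf3a2 and the least covered member, Hnrnpul1.

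Between the groups, 22 members (41.5%) had both sgCbfb libraries above both sgNT libraries, and 8 (15.1%) had both below. Over all tested genes these shares were 27.4% and 16.8%. These counts moved with the scaling. With each library centred on its median, 15 members lay above (28.3%, against 24.5% of all tested genes) and 11 below (20.8%, against 19.3%). With TMM scaling, which takes a trimmed mean of gene-wise ratios, 12 lay above (22.6%, against 23.0%) and 11 below (20.8%, against 20.9%). With the ribosomal RNA genes left out of the library totals, 14 lay above (26.4%, against 24.5%) and 10 below (18.9%, against 19.4%).

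**Figure D2:**
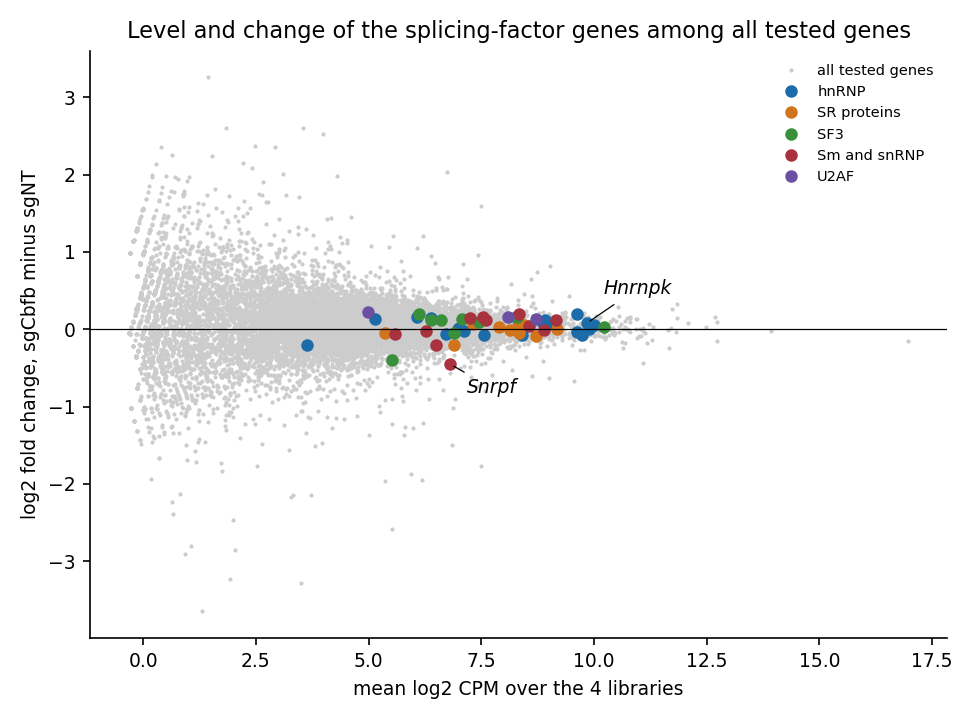
Mean log2 CPM over the 4 libraries (horizontal axis) against log2 fold change, sgCbfb minus sgNT (vertical axis), for all 12207 tested genes in grey and the 53 splicing-factor genes coloured by family. The members sit between 3.64 and 10.2 log2 CPM and close to the line of no change, with Snrpf the member farthest below it.

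Hnrnpk encodes a poly(C)-binding protein with KH domains that acts in splicing, mRNA stability, transcription and translation. It was the fourth most abundant of the 56 genes, and lies on the minus strand of chromosome 13 of GRCm38, from 58391142 to 58403343. Its libraries held 3120 and 2875 reads in sgNT and 3728 and 2947 in sgCbfb. On the log2 CPM scale these were 9.84 and 9.75 in sgNT and 9.90 and 9.85 in sgCbfb. Both sgCbfb libraries lay above both sgNT libraries, but the gap between the lower sgCbfb and the higher sgNT library was smaller than the spread within either group. That order held for 27.4% of all tested genes. For Hnrnpk the gap closed with TMM scaling and with the ribosomal RNA genes left out. The mean was 9.80 ± 0.065 (SD, n = 2) for sgNT against 9.88 ± 0.032 (SD, n = 2) for sgCbfb. The log2 fold change was 0.077 (SE 0.055, 95% interval -0.036 to 0.19, limma adjusted p = 0.567). The mRNA in sgCbfb was thus 106% of the sgNT level, with an interval from 97.5% to 114%. Changes within that interval cannot be told from none with these libraries. Over the alternatives its log2 fold change stayed between 0.031 and 0.12, and its adjusted p between 0.382 and 1.

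RUNX proteins, the DNA-binding partners of CBFβ, recognise the core TGTGGT, read as ACCACA on the other strand, and promoters were searched for both. The window was 250 bases before to 50 after the RefSeq start (GRCm38.p6), and 49 of the 56 members matched the RefSeq table by symbol, with 67 promoters. Of these 67, 7 held the core (10.4%), against 16.8% of all 32851 promoters in the table. Some members have several promoters. Counted by gene, 7 of 49 members held the core in any promoter, against 5113 of 27025 genes. The Hnrnpk promoter, shown for the gene given singly, covers chr13:58402068-58402367 on the minus strand and did not hold it:
Hnrnpk: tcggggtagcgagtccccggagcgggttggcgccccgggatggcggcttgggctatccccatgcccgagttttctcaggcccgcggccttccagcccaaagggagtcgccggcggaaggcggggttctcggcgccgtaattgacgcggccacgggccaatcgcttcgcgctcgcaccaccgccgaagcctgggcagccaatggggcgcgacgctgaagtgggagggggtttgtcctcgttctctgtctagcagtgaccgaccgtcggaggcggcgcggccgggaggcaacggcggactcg
A match of these letters is a description of the sequence and not a binding site, and its absence says only that the letters are not in this window.

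Among the other hnRNP genes the most abundant was Hnrnpab, an RNA-binding protein of the A/B type. It had 3344 and 3376 reads in sgNT and 3990 and 3354 in sgCbfb, and a log2 fold change of 0.054 (limma adjusted p = 0.708). Hnrnpa2b1, with 3063, 3287, 3670 and 3015 reads in the same order, had the smallest difference of the 53, at -0.00083 on the log2 scale. Neither the scaffold-associated Hnrnpu, at -0.079, nor the G-tract-binding Hnrnpf, at -0.031, passed the threshold.

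Hnrnpm, which encodes a splicing regulator that binds GU-rich RNA, lay closest to the threshold without passing it. Its libraries held 2523 and 2405 reads in sgNT and 3378 and 2606 in sgCbfb. The level was 9.54 and 9.50 log2 CPM in sgNT and 9.76 and 9.68 in sgCbfb, so that the groups did not overlap. The log2 fold change was 0.20 (SE 0.056, limma adjusted p = 0.0532), which is 115% of the sgNT level. It passed with a minimum of 5 CPM (adjusted p = 0.0195) and in voom with limma on reads recovered from the deposited values, with library totals (adjusted p = 0.00788) or TMM scaling (adjusted p = 0.0273). Over all alternatives its adjusted p ran from 0.00788 to 0.71. With single libraries left out the log2 fold change ran from 0.16 to 0.24.

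Hnrnpa3, of the A/B type, had 955 and 1016 reads in sgNT and 1273 and 1038 in sgCbfb, and a log2 fold change of 0.15 (unadjusted p = 0.0317, limma adjusted p = 0.271). Its groups did not overlap. Hnrnpul1, with between 37 and 44 reads per library, had the largest nominal change of the family on the lower side, -0.20, and a 95% interval from -0.71 to 0.31. Its 2 sgCbfb libraries, at 3.33 and 3.75 log2 CPM, lay on either side of an sgNT library at 3.69. The other hnRNP genes ranged from -0.075 (Hnrnpdl) to 0.16 (Hnrnpll). In the family, 20 of 21 genes were tested, 11 above and 9 below 0 on the log2 fold scale, the median was 0.036, and 0 passed the threshold in either direction by limma, with 2 at an unadjusted p under 0.05. That median turned to -0.024 without sgNT replicate 1.

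**Figure D3:**
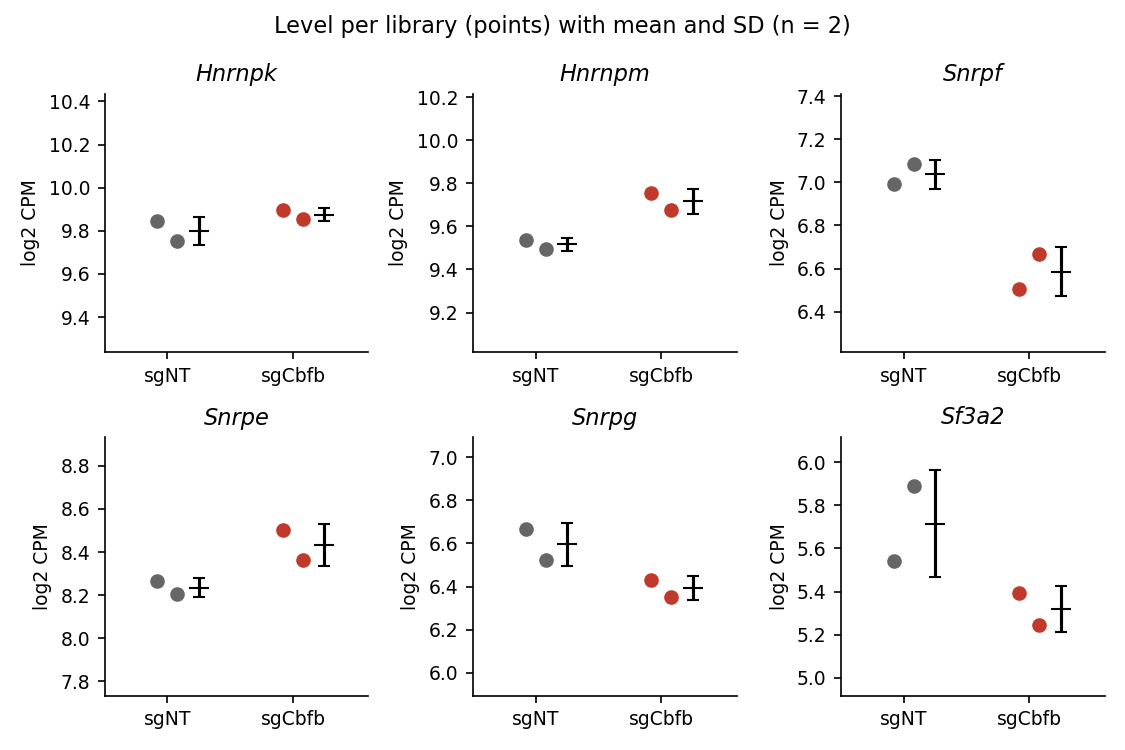
Log2 CPM in each library (points, grey for sgNT and red for sgCbfb) of 6 members, with the mean and SD of each group of 2 as black bars; every panel spans the same range on the log2 scale. Snrpf shows the widest gap between groups, Hnrnpm and Snrpe lie higher and Snrpg and Sf3a2 lower in sgCbfb without passing the threshold, and Hnrnpk differs least.

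The Sm proteins form the ring around the U1, U2, U4 and U5 snRNAs, a ring of 7 proteins encoded by Snrpb, Snrpd1, Snrpd2, Snrpd3, Snrpe, Snrpf and Snrpg. Snrpf was the 1 splicing-factor gene past the adjusted threshold, and it was lower in sgCbfb cells. It encodes SmF, which assembles with SmE and SmG before the ring is closed on snRNA. The gene lies on the minus strand of chromosome 10 of GRCm38, from 93583029 to 93589706. Its libraries held 430 and 451 reads in sgNT and 353 and 322 in sgCbfb.

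On the log2 CPM scale Snrpf was at 6.99 and 7.09 in sgNT and at 6.51 and 6.67 in sgCbfb. The sgCbfb libraries both lay below the sgNT libraries, and the gap between the groups was wider than the spread within either. Its level fell from 7.04 ± 0.067 (SD, n = 2) to 6.59 ± 0.11 (SD, n = 2), a log2 fold change of -0.45 (SE 0.092, 95% interval -0.64 to -0.26, limma adjusted p = 0.00413). This left 73.1% of the sgNT level, with an interval from 64.1% to 83.4%. By p-value it ranked 156 of the 12207 tested genes. The antisense gene Ccdc38 overlaps the 3′ end of Snrpf, and the use of strand in counting is not given. Ccdc38 had 1, 0, 1 and 0 reads in the libraries in the same order, and the part of the overlap in the Snrpf value was not tested. The call rested on more than 1 library: the adjusted p was 0.0982 without sgNT replicate 2, 0.551 without sgCbfb replicate 1 and 0.45 without sgCbfb replicate 2, while the log2 fold change stayed between -0.53 and -0.37. With either one of the sgCbfb libraries left out, limma called 0 of all tested genes (1104 and 1169 at an unadjusted p under 0.05). The call was also lost with quantile normalization (adjusted p = 0.105), with no low-value filter (0.516) and without the mean-variance trend (0.339), at log2 fold changes of -0.48, -0.45 and -0.45. In those settings limma called 83, 55 and 0 of all genes tested (1633, 1729 and 1461 at an unadjusted p under 0.05), against 345. Over all alternatives the adjusted p of Snrpf ran from 0.000195 to 0.551.

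The SmE and SmG genes, whose proteins join SmF in one subcomplex, did not pass the threshold. Snrpe had 1043 and 982 reads in sgNT and 1413 and 1050 in sgCbfb. Its log2 CPM was 8.27 and 8.20 in sgNT and 8.50 and 8.37 in sgCbfb, with no overlap, and the log2 fold change was 0.20 (SE 0.068, unadjusted p = 0.00773, limma adjusted p = 0.138). Snrpg had 343 and 305 reads in sgNT and 335 and 259 in sgCbfb. Its log2 CPM was 6.67 and 6.52 in sgNT and 6.43 and 6.35 in sgCbfb, again with no overlap, and the log2 fold change was -0.20 (SE 0.098, unadjusted p = 0.049, limma adjusted p = 0.332). Snrpe thus had a positive value, with Snrpf and Snrpg on the lower side, and of the 3 only Snrpf passed the threshold. The differences between these changes were not tested.

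The promoters of the 3 genes are shown because their proteins form one subcomplex while their mRNA values differ in sign, a choice made with those values known, each on GRCm38.p6 and 5′ to 3′, with the RUNX core in capitals where present. Snrpe (chr1:133610231-133610530, minus strand) held TGTGGT once, from position 42 counted from the start site, while Snrpf (chr10:93589609-93589908, minus strand) and Snrpg (chr6:86371290-86371589, plus strand) held it on neither strand:
Snrpe: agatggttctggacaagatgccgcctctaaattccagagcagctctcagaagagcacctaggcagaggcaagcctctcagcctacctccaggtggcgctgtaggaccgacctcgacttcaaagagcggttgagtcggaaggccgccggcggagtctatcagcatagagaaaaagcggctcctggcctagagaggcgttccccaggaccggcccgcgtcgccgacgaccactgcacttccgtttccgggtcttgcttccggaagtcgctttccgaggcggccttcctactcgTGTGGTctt
Snrpf: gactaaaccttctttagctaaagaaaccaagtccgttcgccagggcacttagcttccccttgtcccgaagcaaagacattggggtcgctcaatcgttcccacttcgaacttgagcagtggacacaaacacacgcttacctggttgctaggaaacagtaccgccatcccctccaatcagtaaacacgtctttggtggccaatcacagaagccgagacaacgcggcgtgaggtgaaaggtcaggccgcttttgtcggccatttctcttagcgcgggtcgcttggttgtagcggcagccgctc
Snrpg: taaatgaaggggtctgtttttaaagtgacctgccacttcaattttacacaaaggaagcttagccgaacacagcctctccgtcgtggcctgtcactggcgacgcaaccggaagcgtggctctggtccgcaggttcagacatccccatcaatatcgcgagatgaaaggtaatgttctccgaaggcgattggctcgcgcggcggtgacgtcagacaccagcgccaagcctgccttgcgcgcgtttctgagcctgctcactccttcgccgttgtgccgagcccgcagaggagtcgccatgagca
The promoters of the ring genes Snrpd2 and Snrpd3, whose log2 fold changes were also above 0, did not hold the core in this window. Snrpb and Snrpd1 had no matched promoter. Among the other tested members, Snrpc, U2af1l4, Hnrnph1 and Hnrnpa0 held the core with log2 fold changes above 0. Hnrnpf held it in a promoter with a log2 fold change below 0. A link between the core and the mRNA level was not tested.

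The other ring genes differed by less. Snrpb (SmB) had 584 and 590 reads in sgNT and 725 and 652 in sgCbfb and a log2 fold change of 0.16 (limma adjusted p = 0.341). Snrpd1, Snrpd2 and Snrpd3 had log2 fold changes of -0.0095, 0.12 and 0.041. Snrpn, the paralog of Snrpb, had 0 reads in every library. Summed over the ring, the level was 1756 and 1715 CPM in sgNT and 1788 and 1764 CPM in sgCbfb, a mean in sgCbfb that was 102% of that in sgNT.

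The genes of proteins specific to U1 or U2 were Snrpa (U1-A), Snrpc (U1-C), Snrpa1 (U2-A′) and Snrpb2 (U2-B″). Snrpb2, the most abundant of the Snrp genes, had 1848 and 1841 reads in sgNT and 2395 and 1854 in sgCbfb. Its groups did not overlap, and its log2 fold change was 0.12 (unadjusted p = 0.0456, limma adjusted p = 0.321). Snrpc had 0.14, Snrpa -0.065 and Snrpa1 -0.027. Of the 12 Snrp genes 11 were tested, 6 above and 5 below 0 on the log2 fold scale. By limma, 1 passed the threshold (9.09%, against 2.83% of all tested genes). At an unadjusted p under 0.05 there were 4, 2 in each direction (36.4%, against 14.9% of all tested genes). The median of the family was 0.041, the same as that of all members to this precision. It was 0.0026 with TMM scaling.

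SF3a and SF3b are parts of the U2 snRNP that hold the branch point. Sf3b2 was the most abundant of all members, with 4062 and 3893 reads in sgNT and 4716 and 3835 in sgCbfb, and a log2 fold change of 0.028 (SE 0.051, limma adjusted p = 0.866), which was -0.0093 in voom with TMM scaling. Sf3b1, the branch-point subunit that is often mutated in myelodysplasia, had 982 and 1002 reads in sgNT and 1316 and 1028 in sgCbfb. On the log2 CPM scale Sf3b1 was at 8.18 and 8.23 in sgNT and 8.40 and 8.34 in sgCbfb. The groups did not overlap, and the log2 fold change was 0.16 (SE 0.066, unadjusted p = 0.0232, limma adjusted p = 0.233).

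Sf3a2, the SF3a subunit of middle size, had the second largest nominal change of all members. It had 156 and 196 reads in sgNT and 162 and 119 in sgCbfb, and its log2 CPM was 5.54 and 5.89 in sgNT and 5.39 and 5.24 in sgCbfb. The groups did not overlap, but the sgNT libraries stood apart from each other by more than the gap between the groups. The log2 fold change was -0.40 (SE 0.14, unadjusted p = 0.00815, limma adjusted p = 0.14), and with single libraries left out it ran from -0.57 to -0.22. Its partner Sf3a3 had 208 and 227 reads in sgNT and 321 and 214 in sgCbfb and a log2 fold change of 0.20 (limma adjusted p = 0.443), with overlapping groups, and 0.055 without sgCbfb replicate 1 or 0.34 without sgCbfb replicate 2. Of the 9 SF3 genes, 7 had a positive log2 fold change (77.8%, against 57.0% of all tested genes). The other 2, Sf3a2 and Sf3b3, had a negative one. By limma 0 passed the threshold in either direction, with 2 at an unadjusted p under 0.05 (22.2%, against 14.9% of all tested genes). The median of the family was 0.11. The median ranged from 0.072 to 0.11 over the scalings and was 0.044 without sgCbfb replicate 1.

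SR proteins carry RNA recognition motifs and a domain rich in arginine and serine that is phosphorylated by SR protein kinases. The most abundant, Srsf2, whose protein binds exonic enhancers, had 1938 and 1974 reads in sgNT and 2336 and 1815 in sgCbfb, and a log2 fold change of 0.0052 (SE 0.058, 95% interval -0.12 to 0.13, limma adjusted p = 0.982), a value whose sign turned under median centring, quantile normalization, TMM scaling, removal of the ribosomal RNA genes, and without sgNT replicate 1 or sgCbfb replicate 1. Srsf1, the founding member of the family, had 1085 and 1228 reads in sgNT and 1396 and 1135 in sgCbfb, and a log2 fold change of 0.056. Srsf3 had 0.041, Srsf6 -0.007 and Srsf7 0.024, all with overlapping groups.

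Srsf5 had the largest nominal change among the SR genes. Its reads were 460 and 400 in sgNT and 418 and 363 in sgCbfb, and its log2 CPM was 7.09 and 6.91 in sgNT and 6.75 and 6.84 in sgCbfb. The groups did not overlap, and the log2 fold change was -0.21 (SE 0.09, unadjusted p = 0.0313, limma adjusted p = 0.269). Srsf11 had 1422 and 1471 reads in sgNT and 1613 and 1260 in sgCbfb and a log2 fold change of -0.09 (limma adjusted p = 0.556). With single libraries left out, Srsf11 ran from -0.13 to -0.052. Of the 10 tested SR genes 5 lay above and 5 below 0, the median was -0.00089, and 0 passed the threshold in either direction by limma, with 1 at an unadjusted p under 0.05.

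U2AF is a heterodimer whose large subunit, from U2af2, binds the polypyrimidine tract and whose small subunit, from U2af1, reads the AG at the intron's end. With library totals, all 3 U2af genes had both sgCbfb libraries above both sgNT libraries, and none passed the threshold. The same order held for 27.4% of all tested genes, and over all members such counts were lower under the other scalings given above. For U2af1l4 the gap was narrow, from 5.03 log2 CPM in sgNT replicate 2 to 5.06 in sgCbfb replicate 1. With TMM scaling or with the ribosomal RNA genes left out, that gap closed. U2af1 had 840 and 904 reads in sgNT and 1144 and 916 in sgCbfb and a log2 fold change of 0.16 (SE 0.07, unadjusted p = 0.0285, limma adjusted p = 0.257). U2af2 had 1368 and 1350 reads in sgNT and 1673 and 1450 in sgCbfb and a log2 fold change of 0.13 (SE 0.062, unadjusted p = 0.0507, limma adjusted p = 0.335). U2af1l4, a shorter paralog of the small subunit, was far less covered, with 88 and 107 reads in sgNT and 128 and 110 in sgCbfb, and had a log2 fold change of 0.22 (SE 0.16, limma adjusted p = 0.571). With single libraries left out the value of U2af1l4 ran from 0.066 (without sgNT replicate 1) to 0.37 (without sgNT replicate 2). The median of the 3 was between 0.13 and 0.16 over the scalings, 0.097 without sgNT replicate 1 and 0.23 without sgNT replicate 2.

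**Figure D4:**
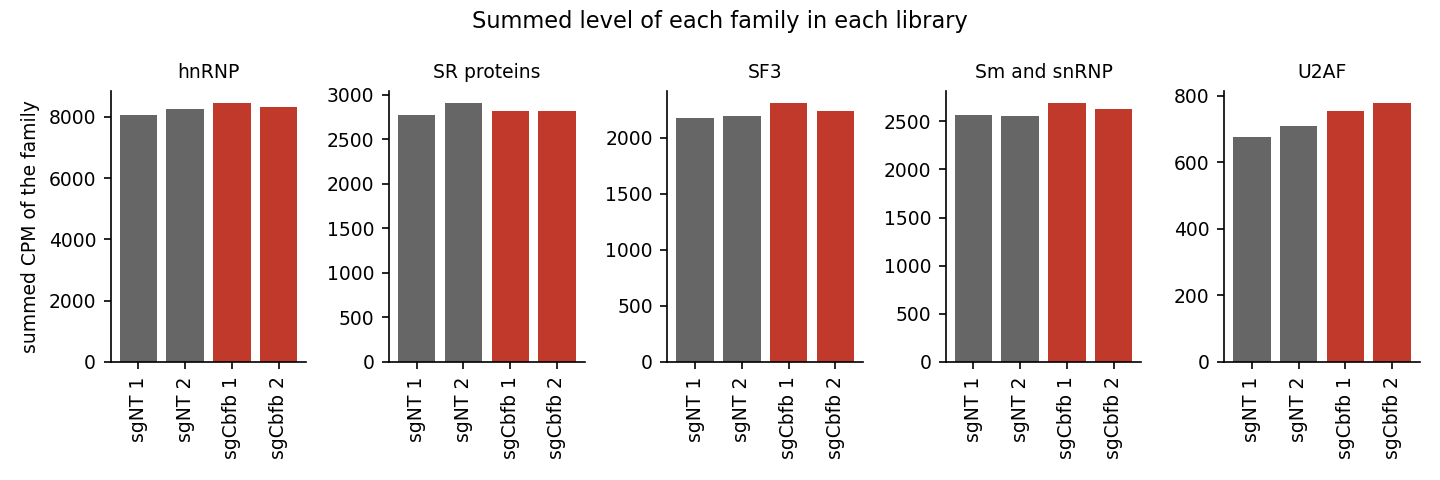
Summed CPM of each family (vertical axis, from 0, a scale of its own in each panel) in the 2 sgNT (grey) and 2 sgCbfb (red) libraries, one bar per library. The sums of the hnRNP, SF3, Snrp and U2af genes are slightly higher in both sgCbfb libraries, and those of the SR genes overlap between the groups; the libraries are scaled to totals that include ribosomal RNA genes.

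Summed over a family, the mean level in sgCbfb was between 99.3% (SR) and 111% (U2af) of that in sgNT. The hnRNP genes summed to 8049 and 8262 CPM in sgNT and 8443 and 8333 CPM in sgCbfb. The SF3 genes summed to 2176 and 2193 CPM in sgNT and 2306 and 2241 CPM in sgCbfb, and the Snrp genes to 2561 and 2550 CPM against 2685 and 2627 CPM. The U2af genes, the smallest sum, had 676 and 708 CPM in sgNT and 754 and 776 CPM in sgCbfb. The SR genes summed to 2776 and 2900 CPM in sgNT and 2815 and 2820 CPM in sgCbfb, with overlapping groups. All members together took 16238 and 16613 CPM in sgNT and 17003 and 16798 CPM in sgCbfb. These sums are scaled to library totals, of which ribosomal RNA genes took 15.5% and 14.8% in sgNT and 12.8% and 14.7% in sgCbfb. With those genes out of the totals, a scaling applied to these sums after the data were seen, the groups of the hnRNP genes overlapped as well (9524 and 9692 CPM in sgNT, 9679 and 9771 CPM in sgCbfb), and those of the SF3, Snrp and U2af genes still did not. The mean in sgCbfb was then between 97.7% (SR) and 109% (U2af) of that in sgNT.

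The rest of the splicing pathway was followed in lists made by role. Over 8 lists with 174 genes, 164 were tested, and 2 were higher and 0 were lower in sgCbfb by limma at an adjusted p under 0.05, with 15 and 5 at an unadjusted p under 0.05 (9.15% and 3.05% of those tested, against 9.67% and 5.23% of all tested genes). The median log2 fold change of these 164 genes was 0.032. Both called genes belonged to the list of other regulators of alternative splicing, of which 37 were tested and whose median was 0.045. Nono, a paraspeckle and RNA-binding protein of the DBHS family, had 1199 and 1155 reads in sgNT and 1722 and 1346 in sgCbfb, and its log2 level rose by 0.30 (SE 0.062, limma adjusted p = 0.00516). Celf2, which binds UG-rich RNA, had 78 and 80 reads in sgNT and 133 and 137 in sgCbfb and rose by 0.69 (SE 0.16, limma adjusted p = 0.0134). The call of both was lost with no low-value filter, under quantile normalization and when the mean-variance trend was dropped, settings with 55, 83 and 0 calls over all genes, while the log2 fold changes ran from 0.27 to 0.33 for Nono and from 0.53 to 0.86 for Celf2 over all alternatives. With any 1 library left out neither passed, at adjusted p-values from 0.0509 to 0.525 for Nono and from 0.0714 to 0.525 for Celf2.

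In the other lists no gene passed the threshold. Among proteins of the U5, U4/U6 and tri-snRNP particles, 27 were tested, with a median of 0.029, and the smallest p was that of Prpf38b, at -0.20 (limma adjusted p = 0.198). With single libraries left out, Prpf38b ran from -0.30 to -0.097. Among partners of U2 and the 3′ splice site, 12 of 13 were tested, with a median of 0.0051, led by Htatsf1 at 0.27 (limma adjusted p = 0.221). The Prp19 complex and the catalytic steps had 23 tested genes and a median of 0.038, led by Slu7, a second-step factor, at 0.34 (limma adjusted p = 0.109). Slu7 ran from 0.20 to 0.48 with single libraries left out. The exon junction complex had 10 tested genes and a median of 0.059, led by Casc3 at 0.28 (limma adjusted p = 0.202). Casc3 ran from 0.18 to 0.38 with single libraries left out. SR protein kinases, import factors and SR-related proteins had 23 tested genes and a median of 0.013, led by Tra2a at 0.17 (limma adjusted p = 0.315). The plot of these lists shows most genes within a narrow band around no change.

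**Figure D5:**
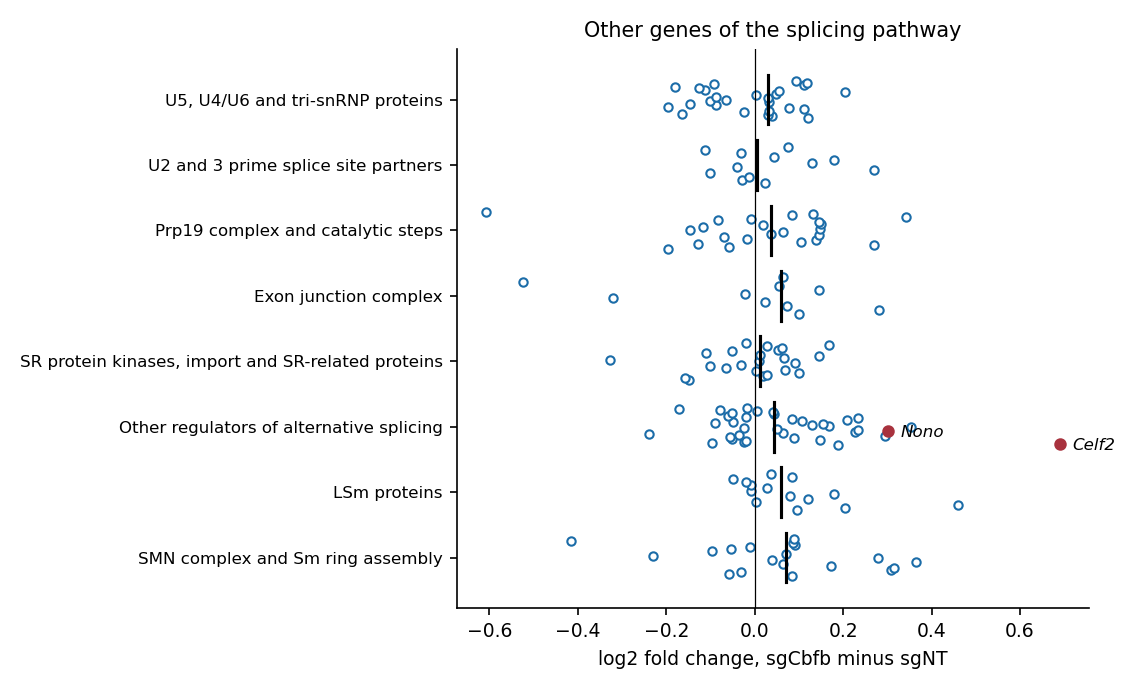
Log2 fold change, sgCbfb minus sgNT (horizontal axis), of 164 tested genes in 8 lists of the splicing pathway, one point per gene and a black line at each list's median. Filled points mark the genes past an adjusted p of 0.05, Nono and Celf2; the medians lie between 0.0051 and 0.071.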

How the data were processed

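RNA of sgNT and sgCbfb MC38 cells (2 libraries each) was made into QuantSeq 3′ mRNA libraries. Per the paper's methods and the submitters' processing notes, the authors used cutadapt 1.9 for trimming, HISAT2 2.1.0 for alignment to the mouse genome (GRCm38, also named mm10) and featureCounts (2.0.1 in the notes, another version in the methods) to count reads on genes. The authors deposited log2 CPM values, scaled to library totals with a small prior count. The tool that made them, the annotation, and the handling of strand and of reads matching several genes are not given in the sources used here, so values of members with paralogs, processed pseudogenes or overlapping genes are less certain; of those named, Srsf2 (Mettl23), Hnrnpab (Phykpl), Hnrnpu (Cox20), Snrpf (Ccdc38), Sf3a3 (Mir697), U2af1l4 (Gm49396) and, among those with 0 reads, Snrpn (Gm38393) and Hnrnpa1l2-ps2 (Cdh18) overlap another annotated gene within 1000 bases of the 3′ end. Whole reads were recovered from the deposited values (over 99.99% of values above the floor within 0.1 of a whole number).

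Genes reaching 0 on the log2 CPM scale in 2 or more libraries entered limma 3.58.1 in R 4.3.3 (mean-variance trend, two-sided, Benjamini-Hochberg over 12207 genes, threshold 0.05). An exact permutation test of 2 against 2 libraries cannot go under 0.333. The fit was tested on simulated data. Over the 53 tested members, replicates differed by more than sampling noise (chi-square per degree of freedom 2.12 in sgNT and 1.63 in sgCbfb). Genes named are Hnrnpk, members past the threshold or at an unadjusted p under 0.05, and in each family the most abundant and the 2 of at least 50 reads that changed most; other values fill in the families, and of each pathway list those past the threshold and the smallest p are named. The members and lists were chosen with earlier results of these data known, and get no set test. Alternatives were other filters, scalings, prior counts, variance models, voom on recovered reads, a threshold of 0.01, a replicate block and each library left out. Positions are from GENCODE M21 and promoters from RefSeq (GRCm38.p6). Figures were drawn with matplotlib 3.10.9.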

Additional observations from a re-analysis of the deposited data

How the results depend on the processing

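At 2 libraries per group the calls depend on the spread that limma shares across genes, and low members such as Hnrnpul1 are limited by their reads. The cause of each change was not tested. The direction of Hnrnpk was positive in every alternative run, and it passed the threshold in none. Of 28 further named genes, Cbfb included, under 15 alternatives, 382 of 420 values kept their direction and side of the threshold. Most of these genes were not called to begin with, so staying uncalled counts as kept. Of the other values, 25 lost a call, 8 changed sign and 5 gained a call. The lost calls were all those of Cbfb, Snrpf, Nono and Celf2, the named genes called in the main fit. The edgeR alternative was not run.

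The count of members higher in sgCbfb, 0 by limma (6 at an unadjusted p under 0.05), was 1 with a minimum of 5 CPM, 1 in voom with library totals and 1 in voom with TMM scaling, each time Hnrnpm. The count lower, 1, was 0 with no low-value filter, 0 under quantile normalization and 0 when the mean-variance trend was dropped, with 3, 11 and 1 members at an unadjusted p under 0.05 in either direction. Over all genes these settings called 55 of 26322, 83 of 12207 and 0 of 12207 (1729, 1633 and 1461 at an unadjusted p under 0.05), against 345 of 12207, so the losses were not limited to the members. With single libraries left out it ran from 0 to 1. The count of other pathway genes higher, 2, was 0 with no low-value filter, 0 with quantile normalization, 0 without the trend, 4 with a minimum of 5 CPM, 4 in voom with library totals and 1 at a threshold of 0.01, and ran from 0 to 0 with single libraries left out. The count lower, 0, was 1 with a minimum of 5 CPM, with median centring and in both voom fits, each time Mbnl1. With a minimum of 5 CPM and with the block, the further genes on the higher side, named after their values were seen, were Khsrp and Slu7.

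With the replicate number as a block, 4 other pathway genes were higher and 1 was lower, and the members gave 0 higher and 1 lower as before. The labels give no source for the pairing, and deviations of same-numbered libraries had a correlation of -0.0042 across genes, with 535 of all tested genes called against 345.

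The median of all members was 0.0026 in voom with TMM scaling, as was that of the Snrp genes, which was 0.018 under median centring, 0.018 when ribosomal RNA genes were left out and 0.022 under quantile normalization. That of the SR genes was -0.037 in voom with TMM scaling. With single libraries left out, medians ran from -0.024 to 0.064 (hnRNP), from -0.053 to 0.032 (SR), from 0.044 to 0.14 (SF3), from 0.040 to 0.070 (Snrp) and from 0.097 to 0.23 (U2af). The log2 fold changes of Srsf5 (-0.29 to -0.12), Snrpg (-0.27 to -0.13), Snrpe (0.13 to 0.27), Hnrnpa3 (0.096 to 0.21) and U2af1 (0.097 to 0.23) kept their sign. Sign turned for Srsf2, to -0.018 under median centring, -0.018 when ribosomal RNA genes were left out, -0.034 under quantile normalization and -0.029 in voom with TMM scaling (from -0.030 to 0.041 with single libraries left out), for Sf3b2, to -0.0093 in voom with TMM scaling, and for Hnrnpul1, from -0.41 to 0.0089 with single libraries left out.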

Other observations

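Genes that build the snRNP core gave no call either. The LSm proteins, relatives of the Sm proteins that ring U6 snRNA or act in mRNA decay, had 14 tested genes and a median of 0.059. Of the 14, 10 had a positive log2 fold change (71.4%, against 57.0% of all tested genes). The smallest p among them was that of Lsm11, a part of the U7 snRNP that processes histone mRNA. It had 75 and 61 reads in sgNT and 115 and 84 in sgCbfb, and a log2 fold change of 0.46 (SE 0.18, unadjusted p = 0.016, limma adjusted p = 0.193). The groups did not overlap.

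The SMN complex and its partners, which load the Sm ring on snRNA and bring it to the nucleus, had 19 tested genes and a median of 0.071. Of the 19, 12 had a positive log2 fold change (63.2%, against 57.0% of all tested genes). The smallest p was that of Tgs1, which caps the assembled snRNA with trimethylguanosine. It had 154 and 181 reads in sgNT and 146 and 117 in sgCbfb, and a log2 fold change of -0.42 (SE 0.13, unadjusted p = 0.00481, limma adjusted p = 0.103). The groups did not overlap. Over the alternatives its adjusted p ran from 0.0535 to 0.736.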
